A study of Mus musculus with 26 samples.

Results

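Immediate early response genes were followed as 10 members: the AP-1 subunit genes Fos, Fosb, Jun and Junb, the stress-responsive factor gene Atf3, the zinc finger factor genes Egr1 and Egr2, the early response genes Ier2 and Ier3, and the phosphatase gene Dusp1. They were chosen by symbol as genes known to respond early to growth factors, cytokines and stress. All 10 were listed in each of the 6 deposited tables, among the 25239 genes of the count table and the 12928 genes shared by the 4 tables of treated cells. Members passed the filter on low values in 9 of 10 cases in the count table and in the untreated TPM table, where Egr2 did not, and in 10 of 10 cases in the treated tables.

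The cells were mouse embryonic stem cells, the self-renewing pluripotent cells of the early embryo, labelled as C57BL/6 and grown in serum on gelatin. HMCES-KO cells, labelled as a knockout of Hmces, were set against wild-type (WT) cells in 26 libraries. HMCES is a protein that binds abasic sites in DNA. In the count table, 2 libraries of each untreated knockout line, named KO7 and KO8, stood against 2 of untreated WT cells, taken as WT because theirs were the only columns not named as a knockout. A separate table gave TPM (a relative transcript level, corrected for gene length and library size) for 2 untreated HMCES-KO and 2 untreated WT libraries. Its WT columns carry the name CCE, which is also the name of a mouse embryonic stem cell line, and whether its HMCES-KO and WT cells share a parental line is not given here. The remaining 4 tables gave TPM after 2 h of treatment, each with 1 library of the knockout line HMCES-KO1, 1 of HMCES-KO2 and 2 of WT cells. Treatments were activin A at 50 ng/ml, which activates the receptors shared with Nodal, SB431542 at 10 µM, an inhibitor of those receptors, BMP4 at 10 ng/ml, which activates BMP receptors, and LDN193189 at 50 nM, an inhibitor of BMP receptors. How KO7 and KO8 correspond to HMCES-KO1 and HMCES-KO2, and the line behind the untreated HMCES-KO TPM libraries, are not given in the sources used here.

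Immediate early genes are transcribed within minutes of a signal without new protein synthesis, through factors that are already present, such as SRF with its ELK partners and CREB, and their mRNAs are short-lived. Their products include transcription factors that act on later genes, and feedback regulators such as DUSP1, which removes phosphate from MAP kinases and so limits the signal. In embryonic stem cells, FGF signalling through ERK is a known source of basal Egr1 and Fos transcription, and serum is a classic inducer of the whole class.

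Total counts were 9.57 to 13.5 M per library in the count table. Whole reads recovered from the TPM values came to 8.52 to 10.0 M in untreated and 4.12 to 5.54 M in treated libraries (M, mega). Hmces mRNA stood at 36.4% and 37.0% of the WT mean in KO7, 24.1% and 25.7% in KO8 and 21.2% and 22.1% in the untreated HMCES-KO TPM libraries. After treatment it stood at 51.7% to 64.1% in HMCES-KO1 and 25.03% to 34.0% in HMCES-KO2. Every HMCES-KO library was thus below the WT libraries of its table, while much of the mRNA remained in HMCES-KO1. The level of an mRNA does not show whether a deletion is present. The 5 pluripotency markers, Pou5f1, Sox2, Nanog, Zfp42 and Esrrb, were above 1 CPM or 1 TPM in every group. CPM are counts scaled to each library's total, printed here without the TMM factors used in the test. Their summed level was 7605 and 7712 CPM in KO7 and 7338 and 7339 CPM in KO8, against 7339 and 7373 CPM in WT libraries. Summed endoderm markers were lower in HMCES-KO, at 26.9 and 28.7 CPM in KO7 and 10.4 and 13.5 CPM in KO8, against 83.8 and 93.7 CPM in WT. Summed neuroectoderm markers were higher, at 256 and 262 CPM in KO7 and 195 and 207 CPM in KO8, against 128 and 141 CPM in WT. Fibroblast markers summed to 394 and 399.9 CPM in KO7 and 234 and 235 CPM in KO8, against 240.2 and 271 CPM in WT, a sum that is mostly Vim. Vim rose in KO7 (0.97 ± 0.067), while Thy1, Pdgfrb and Col1a1 fell in both lines, so that 3 of 4 tested markers fell in KO7 (median -1.62) and 3 of 4 in KO8 (median -1.29). Col1a2 and Col3a1 stayed under 1 CPM in every count library. Trophectoderm markers summed to 8.04 and 9.25 CPM in KO7 and 22.3 and 23.4 CPM in KO8, against 12.6 and 15.2 CPM in WT. Cdx2, Elf5 and Gata3 were under 1 CPM in WT and KO7, where the sum was mostly the keratin genes Krt8 and Krt18. Elf5 and Gata3 were under 1 CPM in KO8 as well. The part of these marker shifts in the results that follow was not tested, and in bulk samples fewer cells of a type and less RNA per cell cannot be told apart.

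In untreated cells the members ran from barely detected to among the more abundant mRNAs on the TPM scale. In the untreated TPM table Ier2, which encodes a small nuclear protein, was the most abundant, at 648 and 676 TPM in HMCES-KO and 436 and 448 TPM in WT. Junb followed at 191 and 188 TPM in HMCES-KO and 128 and 129 TPM in WT. These 2 genes stood clear of each other and of the rest. Dusp1 came next, at 54.8 and 52.9 TPM in HMCES-KO and 53.0 and 52.1 TPM in WT. Ier3, a regulator of cell survival, and Egr1 came after it: Ier3 had 22.7 and 30.9 TPM in HMCES-KO and 24.4 and 33.7 TPM in WT, and Egr1 had 16.6 and 19.5 TPM in HMCES-KO and 19.8 and 19.1 TPM in WT. Jun and Atf3 lay between 7.67 and 10.9 TPM and overlapped. Fos, Fosb and Egr2 were near the floor of detection: Fos lay between 2.05 and 3.58 TPM, Fosb between 0.639 and 1.45 TPM and Egr2 between 0.0839 and 0.270 TPM. Egr2 rested on 1 to 6 reads per library in the count table, Fosb on 6 to 15 and Fos on 20 to 41, so differences in these 3 genes were not detectable at this depth unless large.

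**Figure D1:**
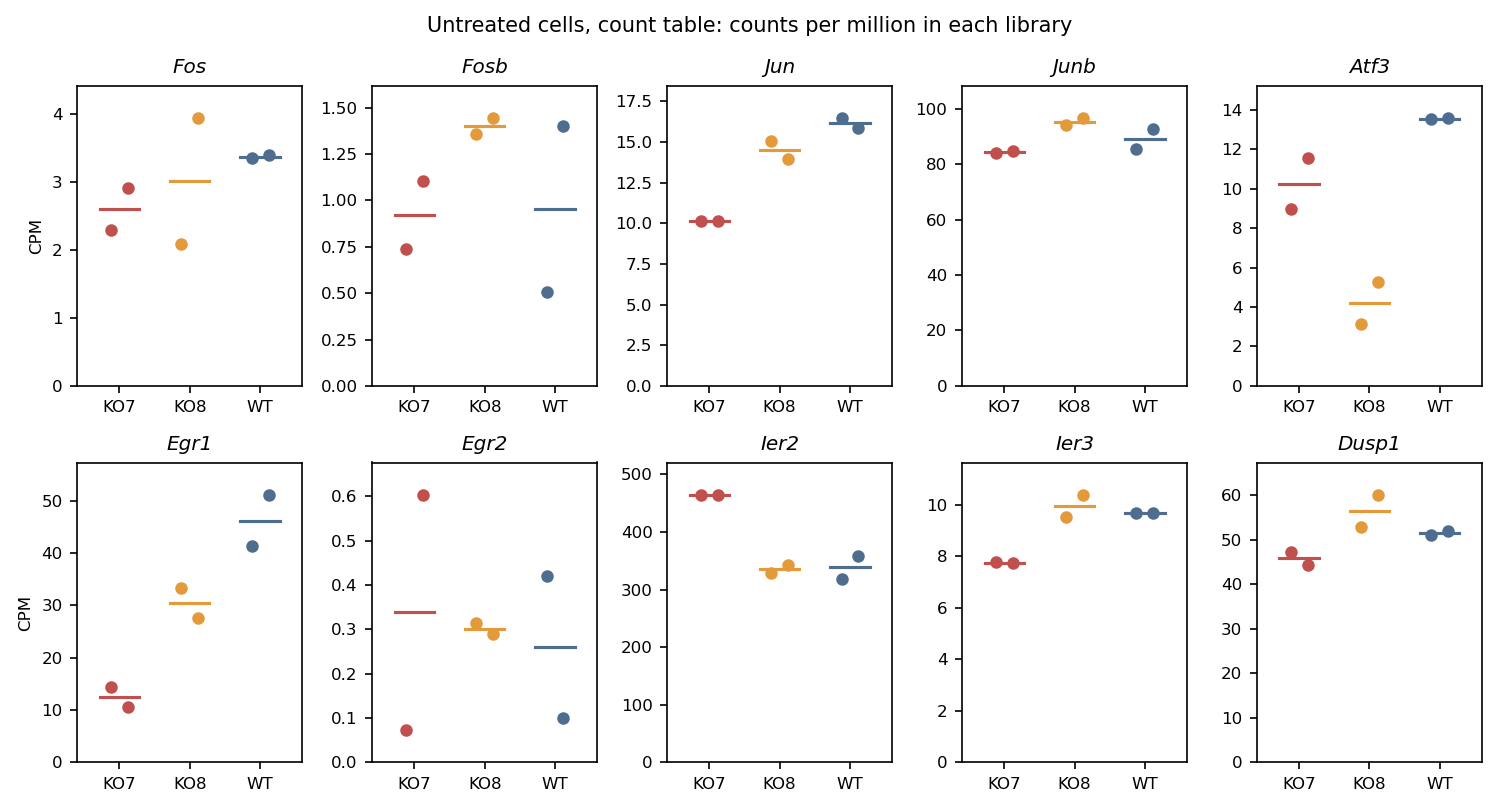
CPM (scaled to each library's total, without TMM factors) of the 10 members in each untreated library of the count table. KO7 and KO8 (2 libraries each) stand left of WT (2 libraries). Points are libraries and lines group means. Egr1 was lowest in KO7 at 14.4 and 10.7 CPM and Atf3 was lowest in KO8 at 3.13 and 5.29 CPM, while Ier2 was high in KO7 alone.

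In untreated cells of the count table, Egr1, Atf3 and Jun were lower and Ier2 was higher in the mean of both HMCES-KO lines. Each of these differences had a different size in KO7 and KO8. Egr1 was called in both lines, Atf3 in KO8 only, and Jun and Ier2 in KO7 only. Over the mean of KO7 and KO8, 1 of 9 tested members rose and 3 fell, where 19.9% of all 13475 tested genes rose, 20.8% fell and 40.6% were called in all (edgeR quasi-likelihood test, adjusted p under 0.05). A share of 4 in 9 is close to that background, so the count itself is no result about the members. Their median log2 fold change was -0.079, against -0.011 over all genes tested. In single lines 3 of 9 were called in KO7, where 38.2% of all genes were, and 2 of 9 in KO8, where 38.9% were.

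Egr1 encodes a zinc finger transcription factor that ERK signalling induces (mm10 chromosome 18:34861207-34864956, plus strand). It had 14.4 and 10.7 CPM in KO7 and 33.2 and 27.6 CPM in KO8, against 41.3 and 51.1 CPM in WT. All 4 HMCES-KO libraries lay below both WT libraries, and KO7 lay below KO8. Egr1 fell, with a log2 fold change of -1.78 ± 0.14 in KO7 (adjusted p = 1.0e-08) and -0.55 ± 0.13 in KO8 (adjusted p = 0.0020), and the mean of both was -1.17 ± 0.11 (adjusted p = 1.2e-07). The call in KO8 was lost without KO8 replicate 2 (adjusted p = 0.065). Egr2, its relative, had 0.0740 and 0.603 CPM in KO7 and 0.313 and 0.289 CPM in KO8, against 0.420 and 0.0999 CPM in WT, and was not tested.

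Atf3 encodes a bZIP factor of the ATF/CREB family that stress and TGF-beta are known to induce (chromosome 1:191170297-191183333, minus strand). It had 8.95 and 11.6 CPM in KO7 and 3.13 and 5.29 CPM in KO8, against 13.5 and 13.6 CPM in WT. No HMCES-KO library reached the WT level, and the 2 KO8 libraries were the lowest. Atf3 fell, at -1.62 ± 0.22 in KO8 (adjusted p = 7.0e-06), while in KO7 its log2 fold change was -0.35 ± 0.18 (adjusted p = 0.14). The mean of both lines was -0.99 ± 0.17 (adjusted p = 0.00011).

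Among the AP-1 subunits, Jun (chromosome 4:95049036-95052222, minus strand) had 10.1 and 10.2 CPM in KO7 and 15.0 and 13.95 CPM in KO8, against 16.5 and 15.9 CPM in WT. The KO7 libraries were nearly equal and well below WT, and the KO8 libraries lay just under WT. Jun fell, at -0.60 ± 0.14 in KO7 (adjusted p = 0.0020), and in KO8 its log2 fold change was -0.11 ± 0.14 (adjusted p = 0.55). The mean of both lines, -0.36 ± 0.12 (adjusted p = 0.021), lost its call with DESeq2 (adjusted p = 0.13) and without WT replicate 1 (0.076), KO7 replicate 1 (0.062), KO7 replicate 2 (0.0508) or KO8 replicate 2 (0.069). Junb (chromosome 8:84976909-84978748, minus strand) had 83.9 and 84.8 CPM in KO7 and 94.0 and 96.6 CPM in KO8, against 85.6 and 92.6 CPM in WT. The WT libraries lay between the lines, and Junb had log2 fold changes of -0.0098 ± 0.070 in KO7 (adjusted p = 0.93) and 0.15 ± 0.070 in KO8 (adjusted p = 0.10), the second of which passed the threshold without WT replicate 2 (0.22, adjusted p = 0.0089). Fos (chromosome 12:85473890-85477274, plus strand) had 2.29 and 2.92 CPM in KO7 and 2.09 and 3.95 CPM in KO8, against 3.36 and 3.40 CPM in WT. Fosb (chromosome 7:19302696-19310045, minus strand) had 0.740 and 1.11 CPM in KO7 and 1.36 and 1.44 CPM in KO8, against 0.504 and 1.40 CPM in WT. Neither was called in either line, with log2 fold changes over the mean of -0.21 ± 0.27 for Fos and 0.34 ± 0.45 for Fosb.

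Ier2 (chromosome 8:84661331-84662852, minus strand) was high in KO7 alone. It had 465 and 464 CPM in KO7 and 329 and 343 CPM in KO8, against 319 and 358 CPM in WT. Both KO7 libraries stood above all others, and both KO8 libraries fell inside the WT range. Ier2 rose by 0.52 ± 0.060 in KO7 (adjusted p = 1.2e-06), with 0.039 ± 0.061 in KO8 (adjusted p = 0.64), where it passed the threshold without WT replicate 2 (0.14, adjusted p = 0.0069). The mean of both lines was 0.28 ± 0.053 (adjusted p = 0.00027). Ier3 (chromosome 17:35821713-35822911, plus strand) had 7.77 and 7.74 CPM in KO7 and 9.51 and 10.4 CPM in KO8, against 9.66 and 9.69 CPM in WT, a log2 fold change of -0.079 ± 0.14 over the mean that was not called (adjusted p = 0.69). Dusp1 (chromosome 17:26505591-26508472, minus strand) had 47.2 and 44.4 CPM in KO7 and 52.8 and 60.1 CPM in KO8, against 51.0 and 51.9 CPM in WT. Its KO7 libraries lay below WT and its KO8 libraries above, and the mean was 0.044 ± 0.076 (adjusted p = 0.67).

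KO8 and KO7 differed directly in 5 of 9 tested members, where 28.2% of all genes differed. Relative to KO7, KO8 was lower in Atf3 (-1.27 ± 0.22, adjusted p = 0.00019) and Ier2 (-0.49 ± 0.060, adjusted p = 3.2e-06). It was higher in Egr1 (1.23 ± 0.15, adjusted p = 2.5e-06), Jun (0.49 ± 0.15, adjusted p = 0.014) and Dusp1 (0.28 ± 0.088, adjusted p = 0.021). With the lines taken as 1 group of 4 libraries, so that the difference between them counts as spread, no member was called against WT: adjusted p was 0.11 for Egr1, 0.22 for Atf3, 0.27 for Ier2 and 0.27 for Jun. The Jun difference between lines was lost with DESeq2 (adjusted p = 0.084) and without KO7 replicate 1 (0.10), KO7 replicate 2 (0.073) or KO8 replicate 1 (0.12). That in Dusp1 was lost with DESeq2 (0.083) and without KO7 replicate 1 (0.081), KO7 replicate 2 (0.17) or KO8 replicate 2 (0.30). Junb, at 0.16 ± 0.070, was called without either WT library (adjusted p = 0.027 and 0.027).

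**Figure D2:**
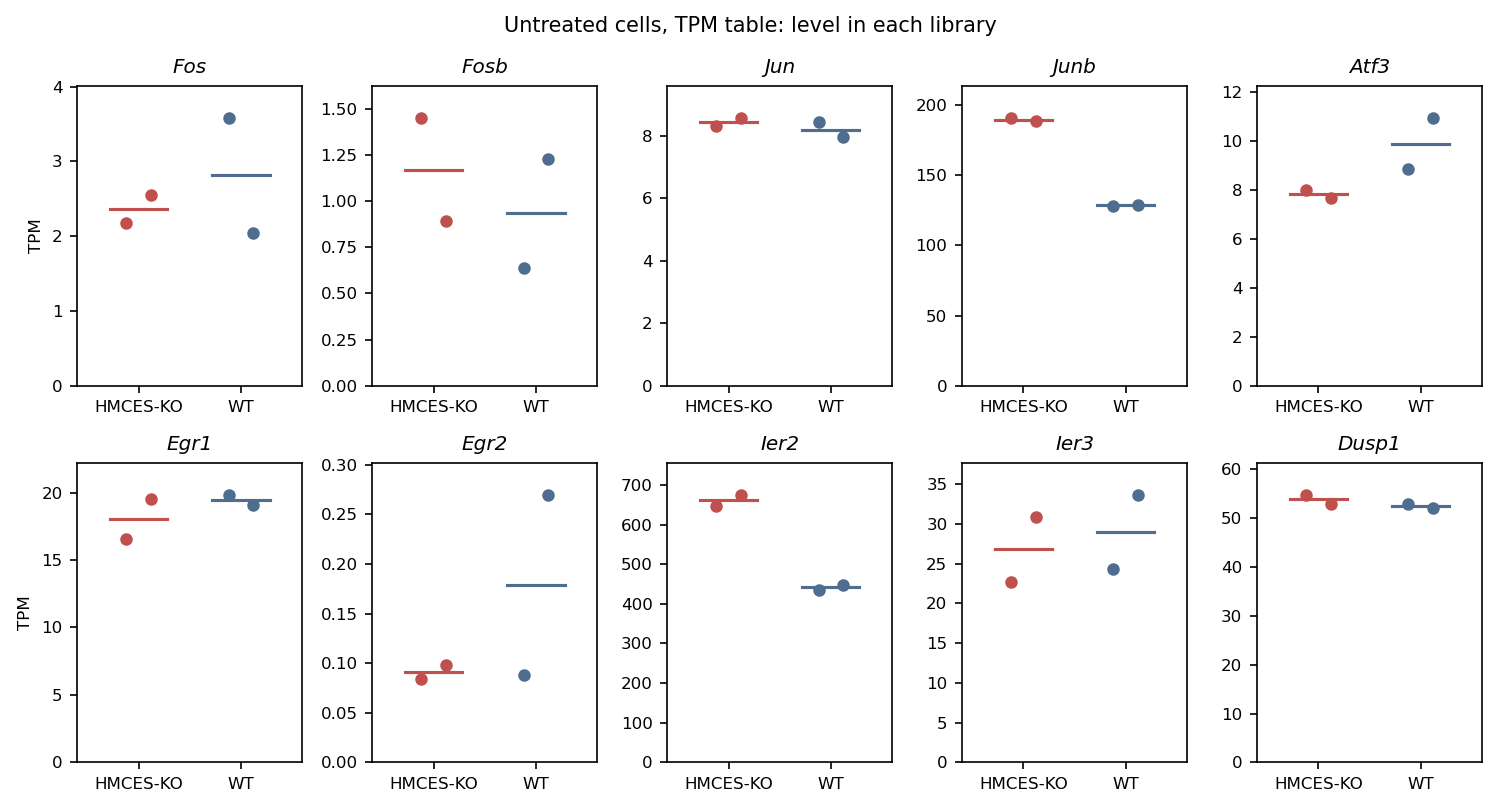
TPM of the 10 members in each untreated library of the TPM table, HMCES-KO (2 libraries) left of WT (2 libraries); points are libraries and lines group means. Ier2 and Junb were higher in both HMCES-KO libraries than in both WT libraries, and Atf3 was lower in both without passing the test; the other members overlapped.

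The untreated TPM table gave a different set of members. Ier2 and Junb rose in HMCES-KO cells, and neither Egr1 nor Jun stood apart. The WT level of some members differed between this table and the count table. With counts scaled by gene length to TPM, count-table WT libraries had 36.7 and 45.0 TPM for Egr1, against 19.8 and 19.1 TPM here. Jun had 14.1 and 13.5 against 8.43 and 7.94 TPM, and Atf3 18.7 and 18.6 against 8.86 and 10.9 TPM. Junb was alike, at 127 and 136 against 128 and 129 TPM. The part of the WT level in the different set was not tested. Of 9 tested members, 2 rose and 0 fell, where 16.0% of all genes tested were called, 5.80% higher and 10.2% lower (limma on log2(TPM + 1), adjusted p under 0.05). Ier2 had 648 and 676 TPM in HMCES-KO, against 436 and 448 TPM in WT, a log2 fold change of 0.58 ± 0.037 (adjusted p = 0.0015). Junb had 191 and 188 TPM in HMCES-KO, against 128 and 129 TPM in WT, a log2 fold change of 0.56 ± 0.040 (adjusted p = 0.0024). In both genes the values of a group lay close together and the groups did not overlap; if the WT columns named CCE are another line, genotype and line cannot be told apart in this table. Atf3 had 8.01 and 7.67 TPM in HMCES-KO, against 8.86 and 10.9 TPM in WT, and its -0.30 ± 0.15 did not pass (adjusted p = 0.22). Egr1, at -0.11 ± 0.11 (adjusted p = 0.54), Jun, at 0.039 ± 0.13 (0.87), and Dusp1, at 0.034 ± 0.060 (0.73), did not pass either. Median log2 fold change was 0.034 over the tested members and -0.056 over all genes.

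Ier2 and Junb are near neighbours on chromosome 8, and the median over that chromosome was shifted in the same comparisons. In KO7 the 734 tested genes of chromosome 8 had a median log2 fold change of 0.26, against -0.014 for genes of all other chromosomes, the highest median of 20 chromosomes. In KO8 the median was -0.022, against -0.011 elsewhere. In the untreated TPM table it was 0.23, against -0.065 elsewhere, again the highest of 20. Genes within 5 Mb of Ier2 had medians of 0.33 in KO7, -0.024 in KO8 and 0.23 in the untreated TPM table. Ier2 itself stood at 0.52, 0.039 and 0.58 in these comparisons, so it followed the direction of its neighbours in KO7 and the TPM table and lay above their median in each. Junb, at -0.0098 in KO7 and 0.56 in the TPM table, lay below the chromosome 8 median in the first and above it in the second. Jund, the remaining JUN family gene and also on chromosome 8, stood at 0.43 ± 0.056 in KO7 (adjusted p = 4.9e-06), -0.39 ± 0.057 in KO8 (2.0e-05) and 0.49 ± 0.045 in the untreated TPM table (0.0041). The part of the chromosome-wide shift in the Ier2 and Junb results was not tested.

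**Figure D3:**
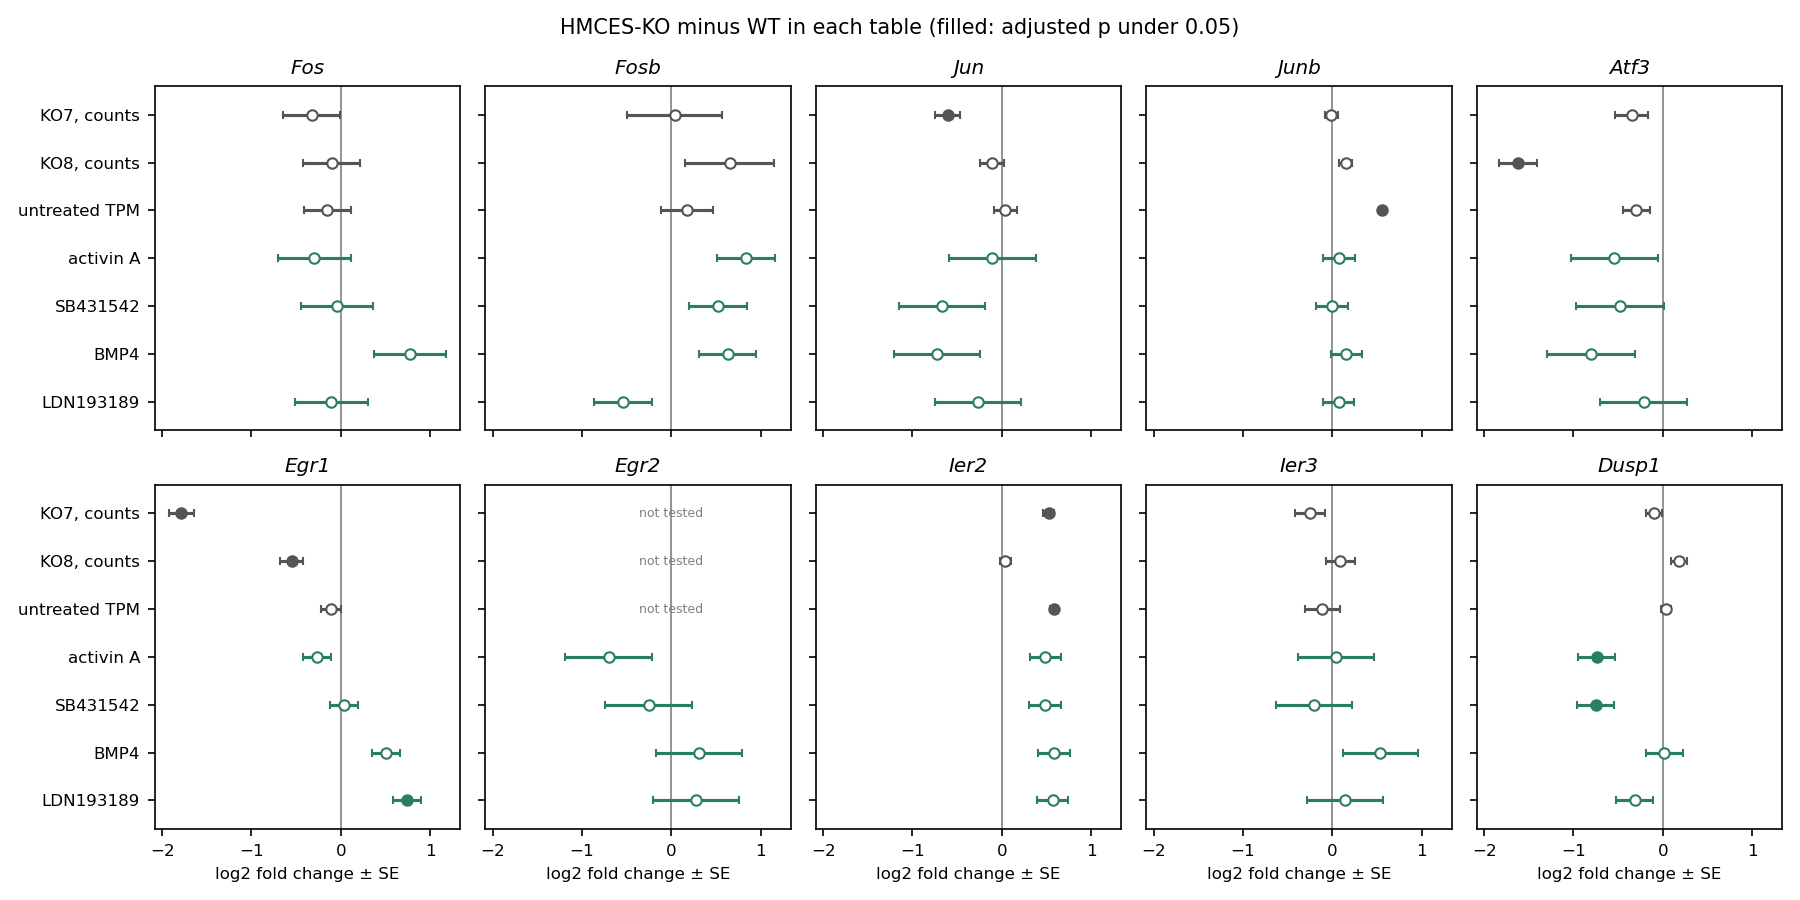
Log2 fold change of HMCES-KO over WT with its standard error for each member, in both lines of the count table, the untreated TPM table and the 4 treated tables; filled points have an adjusted p under 0.05. Ier2 lay between 0.49 and 0.58 in every comparison except KO8, and Egr1 ran from -1.78 in KO7 to 0.74 under LDN193189.

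After 2 h of treatment, both HMCES-KO libraries lay above both WT libraries for Ier2 in each of the 4 tables, below them for Dusp1 under activin A and SB431542, and above them for Egr1 under BMP4 and LDN193189. The share of all genes separated in this way is not given here. In single tables few members passed the test: 1 of 10 under activin A, where 12.1% of all 12608 tested genes were called, 1 under SB431542 (12.1%), 0 under BMP4 (6.33%) and 1 under LDN193189 (2.29%), by limma. Under BMP4, 2 members had an unadjusted p under 0.05, and edgeR on recovered reads called 2. Over the mean of the 4 tables, 2 of 10 rose and 1 fell, where 34.5% of all genes were called, 13.8% higher and 20.7% lower. That mean counts the 4 treated libraries of a knockout line as separate. Each HMCES-KO group holds 1 library of each line, so its spread includes the difference between lines.

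Ier2 was called over the mean of the treated tables, at 0.53 ± 0.088 (adjusted p = 0.00051). Under activin A it had 3209 and 2433 TPM in HMCES-KO cells, against 2026 and 1957 TPM in WT cells. Under SB431542 it had 2879.7 and 2052 TPM in HMCES-KO cells, against 1749.6 and 1721 TPM in WT cells. Both HMCES-KO libraries lay above both WT libraries in each case, with HMCES-KO1, given first here and in what follows, the higher. Under BMP4 it had 3224 and 2413 TPM in HMCES-KO cells, against 1799 and 1924 TPM in WT cells, and under LDN193189 3268 and 2519 TPM in HMCES-KO cells, against 1926 and 1943 TPM in WT cells. The same order held there, so that 8 of 8 HMCES-KO libraries exceeded every WT library of their table. Log2 fold changes were 0.49 ± 0.18 with activin A (adjusted p = 0.089), 0.49 ± 0.18 with SB431542 (0.094), 0.58 ± 0.18 with BMP4 (0.069) and 0.57 ± 0.18 with LDN193189 (0.12). With the knockout line and WT number as a block, all 4 passed (adjusted p = 0.00022, 0.00026, 0.00015 and 0.00027 in the same order), and so they did, without the block, with edgeR on recovered reads (0.020 to 0.038). Since each knockout line belongs to 1 genotype, and WT numbers do not pair, the block takes the difference between lines out of the error of the genotype comparison, so its p-values speak for these lines only. Ier2 was also called under SB431542 without HMCES-KO2 of that table (0.039), and under BMP4 without any 1 of the HMCES-KO libraries under SB431542 or LDN193189 (0.044 to 0.045). Genes within 5 Mb of Ier2 had a median of 0.18 over the mean of the tables, and those of other chromosomes -0.052. The part of that shift was not tested.

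Dusp1 had 52.2 and 53.6 TPM in HMCES-KO cells, against 84.8 and 93.2 TPM in WT cells, under activin A. Under SB431542 it had 50.9 and 67.0 TPM in HMCES-KO cells, against 89.5 and 109.5 TPM in WT cells. In both tables the HMCES-KO libraries lay below both WT libraries. Dusp1 fell, at -0.74 ± 0.21 under activin A (adjusted p = 0.036) and -0.75 ± 0.21 under SB431542 (adjusted p = 0.033). Under BMP4 it had 40.0 and 55.5 TPM in HMCES-KO cells, against 44.8 and 48.4 TPM in WT cells, and under LDN193189 30.4 and 45.7 TPM in HMCES-KO cells, against 42.0 and 51.8 TPM in WT cells. The groups overlapped there, with 0.018 ± 0.21 under BMP4 (adjusted p = 0.97) and -0.32 ± 0.21 under LDN193189 (adjusted p = 0.47). Over the mean of the tables Dusp1 fell, at -0.45 ± 0.10 (adjusted p = 0.0048), a call that held without any 1 of the 16 libraries. The call under activin A was lost without any 1 of that table's 4 libraries (adjusted p = 0.11 to 0.18) and with limma without trend (0.070). That under SB431542 was lost without WT replicate 1 (0.073), WT replicate 2 (0.22) or HMCES-KO1 (0.22) of that table and with limma without trend (0.066).

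Egr1 rose under LDN193189, where untreated cells of the count table had shown a fall. Under LDN193189 it had 77.5 and 72.8 TPM in HMCES-KO cells, against 39.4 and 50.2 TPM in WT cells, and it rose by 0.74 ± 0.16 (adjusted p = 0.029). Under BMP4 it had 55.3 and 74.3 TPM in HMCES-KO cells, against 43.9 and 45.8 TPM in WT cells, a log2 fold change of 0.51 ± 0.16 (adjusted p = 0.075). Both HMCES-KO libraries lay above both WT libraries in these 2 tables. Under activin A it had 38.3 and 38.4 TPM in HMCES-KO cells, against 42.4 and 50.6 TPM in WT cells, and under SB431542 48.9 and 54.4 TPM in HMCES-KO cells, against 51.7 and 48.9 TPM in WT cells. There HMCES-KO lay below WT under activin A (-0.27 ± 0.16, adjusted p = 0.30) and overlapped it under SB431542 (0.035 ± 0.16, adjusted p = 0.91). Under BMP4 it passed with the replicate block (adjusted p = 0.042), with edgeR on recovered reads (0.025) and without HMCES-KO1 of that table (0.034). The call under LDN193189 was lost without WT replicate 1 (0.21), WT replicate 2 (0.075) or HMCES-KO1 (0.12) of that table, without either WT library under SB431542 (0.0503 and 0.0502), with limma without trend (0.075) and with that table fitted alone (0.19). The mean of the tables, 0.25 ± 0.079 (adjusted p = 0.024), was lost without any of 5 libraries: WT replicate 1 under activin A (0.062), WT replicate 2 under SB431542 (0.053), HMCES-KO2 under SB431542 (0.0522), HMCES-KO2 under BMP4 (0.0505) and WT replicate 1 under LDN193189 (0.062). The count table and the treated tables were made apart and their Egr1 differences were not tested against each other.

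The AP-1 subunits, Atf3, Ier3 and Egr2 were not called between genotypes in a single treated table. Over the 4 tables Jun ran from 8.98 to 51.1 TPM in the 8 HMCES-KO libraries and 23.2 to 54.6 TPM in the 8 WT libraries. Fos ran from 3.29 to 12.2 TPM in HMCES-KO and 2.65 to 11.03 TPM in WT libraries, and Fosb from 0.275 to 3.003 TPM in HMCES-KO and 0 to 1.41 TPM in WT libraries. Over all 16 libraries the genotypes overlapped in all 3 genes. Within tables both HMCES-KO libraries lay above both WT libraries for Fosb under activin A, SB431542 and BMP4 and for Fos and Egr2 under BMP4, and below them for Fosb under LDN193189 and Jun under SB431542. Junb lay above WT under activin A, and the remaining pairs of these 7 genes overlapped. These positions are descriptions only, since the share of all genes separated in this way is not given here. Over the mean of the tables, log2 fold changes were -0.51 ± 0.25 for Atf3 (adjusted p = 0.13), -0.44 ± 0.24 for Jun (0.18), 0.36 ± 0.16 for Fosb (0.10), 0.13 ± 0.21 for Ier3 (0.68), 0.083 ± 0.20 for Fos (0.79), 0.076 ± 0.089 for Junb (0.55) and -0.092 ± 0.24 for Egr2 (0.80). Atf3 was negative in each of the 4 tables and was called over their mean without WT replicate 2 under activin A (0.028) or HMCES-KO1 under BMP4 (0.027). Jun passed over the mean with the replicate block (adjusted p = 0.030) and without HMCES-KO2 under BMP4 (0.017). Fosb passed with limma without trend under activin A (0.046) and over the mean (0.033). Fosb rested on 0 to 20 recovered reads per library and Egr2 on 0 to 5. Fosb had 0 reads in WT replicate 2 under BMP4, which allows up to 0.652 RPM (3 reads of that library's total, scaled). Egr2 had 0 reads in HMCES-KO1 under activin A and in WT replicate 1 under LDN193189, which allow up to 0.657 and 0.728 RPM; these limits cover counting error only.

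Within the treated HMCES-KO libraries, HMCES-KO2 and HMCES-KO1 differed in 4 of 10 members, where 7.95% of all genes differed. Ier2 was lower in HMCES-KO2 (-0.42 ± 0.042, adjusted p = 9.5e-05), in 4 of 4 tables. Jun was higher, at 51.1, 32.5, 33.2 and 29.8 TPM in HMCES-KO2 (activin A, SB431542, BMP4, then LDN193189), against 26.7, 25.8, 8.98 and 15.0 TPM in HMCES-KO1 (0.99 ± 0.21, adjusted p = 0.011). HMCES-KO2 also had more Ier3 (0.73 ± 0.19, adjusted p = 0.032) and Dusp1 (0.37 ± 0.094, adjusted p = 0.033). The Ier2 difference stood beside a chromosome 8 median of -0.19, the lowest of 20 chromosomes, and a median of -0.28 for genes within 5 Mb of it. Its part in the result was not tested. All 3 other calls were lost with limma without trend (Jun 0.057, Ier3 0.10, Dusp1 0.086), and that of Jun without either HMCES-KO library under BMP4 (0.061 and 0.063). The Ier3 call was lost without any 1 of the 6 HMCES-KO libraries under SB431542, BMP4 or LDN193189 (0.081 to 0.16). Dusp1 lost its call without any of those 6 or either WT library under SB431542 (0.05004 to 0.12), and with the knockout libraries fitted alone (0.11).

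**Figure D4:**
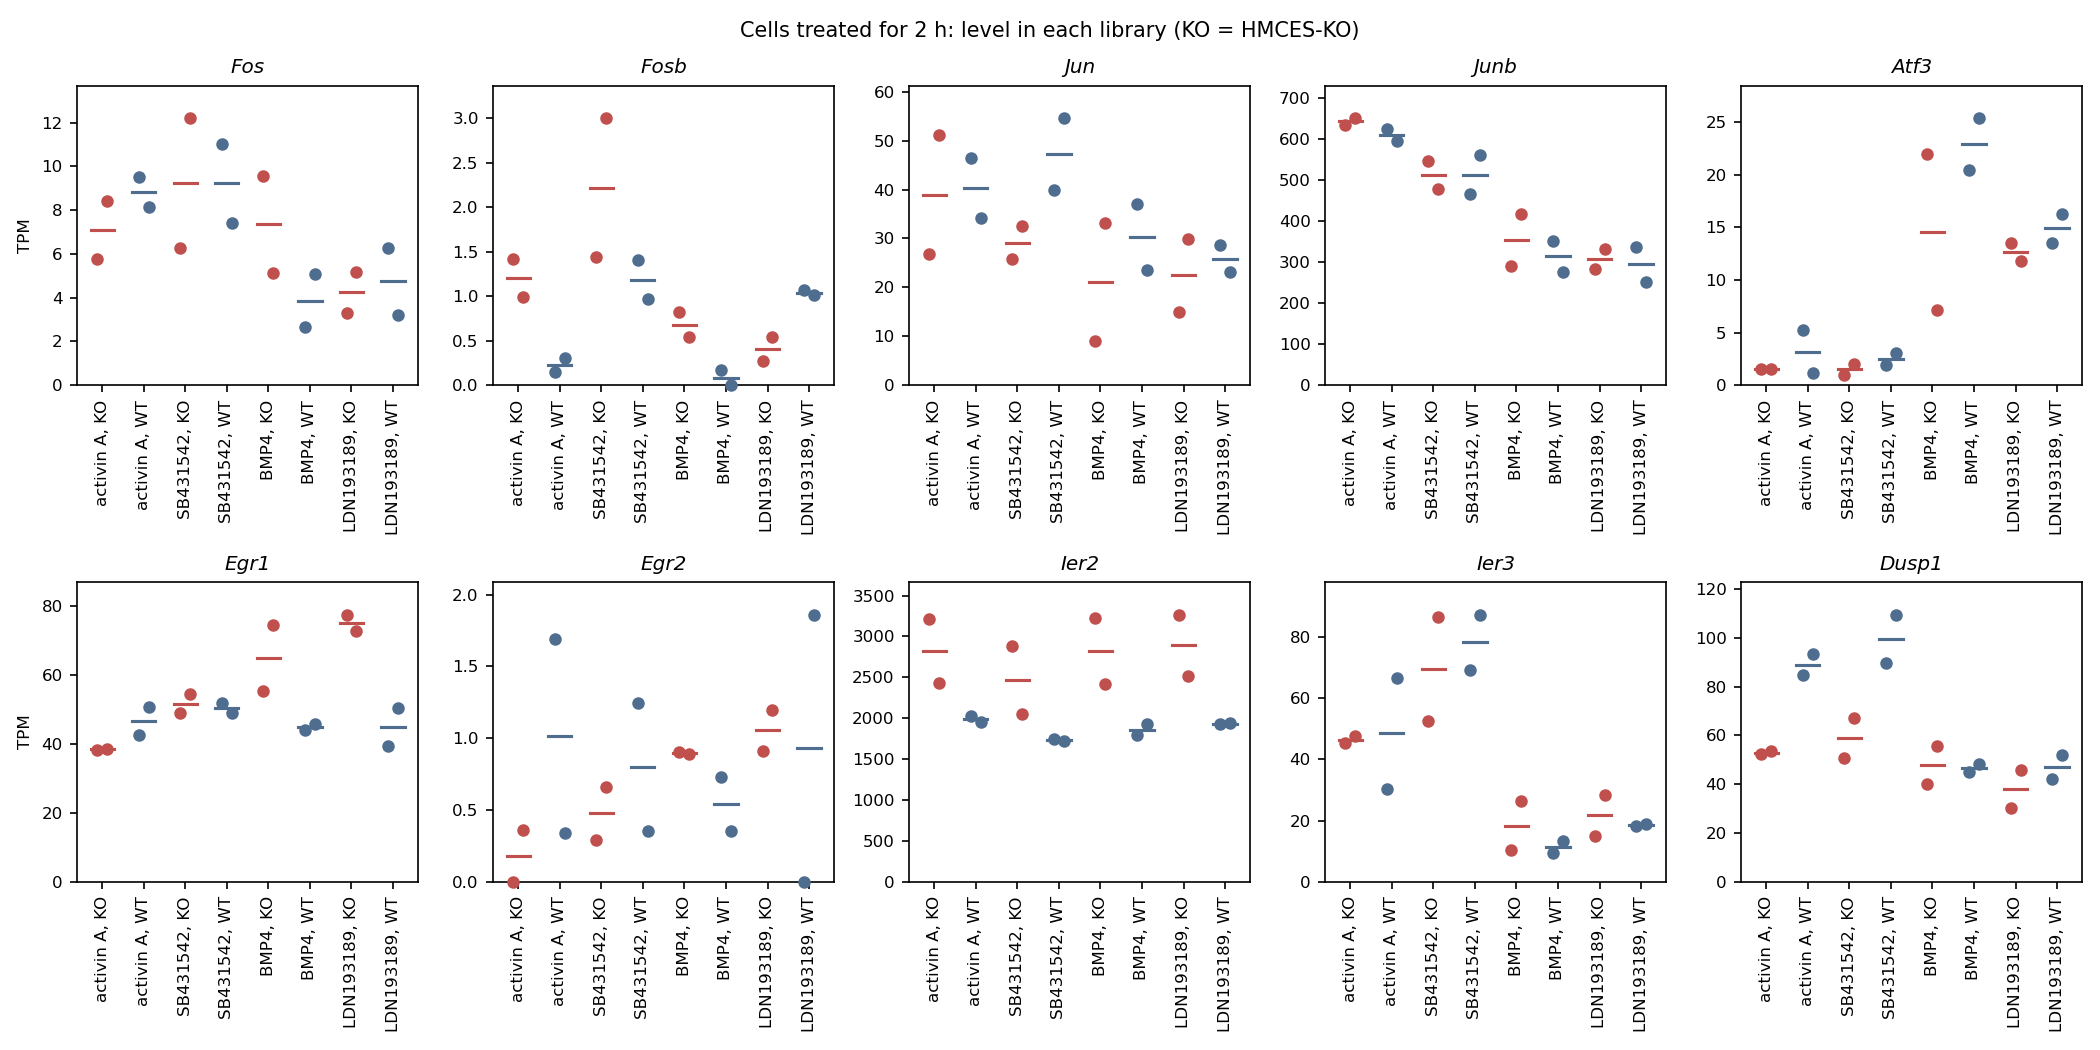
TPM, as deposited, of the 10 members in each library after 2 h of treatment, without the rescaling used in the fits. HMCES-KO (KO, 2 libraries) stands left of WT (2 libraries) under each treatment. Points are libraries and lines group means. Junb, Ier3 and Atf3 separated the 8 libraries under activin A or SB431542 from the 8 under BMP4 or LDN193189. The share of all genes that did so is not given here.

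Each ligand was also compared with the inhibitor of its receptor, a comparison aimed at signalling through that receptor. Each treatment has its own table, so treatment and table cannot be told apart in these contrasts. Activin A against SB431542 called 0 of 10 members in HMCES-KO cells and 0 in WT cells, where 0.103% and 0.0159% of all genes were called, and 1 member in each genotype had an unadjusted p under 0.05. BMP4 against LDN193189 likewise called 0 in HMCES-KO cells (0.0238% of all genes) and 0 in WT cells (0.0317%), with 0 and 1 members at an unadjusted p under 0.05. In these 4 contrasts edgeR on recovered reads called 0 members as well. The treated tables hold a single time, 2 h, and no library without a ligand or inhibitor. A change at an earlier time could thus not be seen. The response of known targets of these receptors is not given here. Activin A minus SB431542 gave -0.42 ± 0.16 for Egr1 in HMCES-KO cells, the lowest adjusted p of the 4 contrasts at 0.92. For Ier3 it gave -0.53 ± 0.42 in HMCES-KO and -0.77 ± 0.42 in WT cells, and for Junb 0.33 ± 0.18 in HMCES-KO and 0.25 ± 0.18 in WT cells. BMP4 minus LDN193189 gave 0.65 ± 0.41 for Fos in HMCES-KO and -0.23 ± 0.41 in WT cells. Standard errors of the members in these contrasts ran from 0.16 to 0.49 on the log2 scale, with 2 libraries a group.

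Activin A against BMP4, and SB431542 against LDN193189, separated several members. In WT cells Junb, Ier3 and Dusp1 rose, and Atf3 fell, under activin A relative to BMP4 and under SB431542 relative to LDN193189. Activin A against BMP4 called 2 of 10 members in HMCES-KO cells, where 0.841% of all genes were called, and 4 of 10 in WT cells (3.08%). SB431542 against LDN193189 called 1 of 10 in HMCES-KO cells (0.753%) and 4 of 10 in WT cells (2.31%). In each of these contrasts edgeR on recovered reads called 3 of 10 in HMCES-KO and 4 of 10 in WT cells. For SB431542 against LDN193189 in HMCES-KO cells its calls included Junb and Ier3. It also called more genes over all in HMCES-KO cells. These counts leave out the pairing of HMCES-KO libraries by line. With the replicate block, Ier3 and Egr1 also passed in HMCES-KO cells for activin A against BMP4. Junb, Ier3 and Dusp1 did so for SB431542 against LDN193189. The block raised the number of calls over all genes as well, so fewer calls in HMCES-KO cells are no result about genotype. The ligand and the inhibitor of the same receptor stood on the same side. Treatment and table are the same split here and cannot be told apart. Summed endoderm markers moved with the split: they were 9.39 to 13.6 TPM in HMCES-KO and 18.0 to 23.4 TPM in WT under activin A and SB431542, and 22.1 to 36.9 TPM in HMCES-KO and 38.1 to 55.2 TPM in WT under BMP4 and LDN193189. Summed neuroectoderm markers also separated the tables within each genotype, at 655 to 839.7 TPM in HMCES-KO and 634 to 697 TPM in WT under activin A and SB431542, and 921 to 1243 TPM in HMCES-KO and 819 to 897 TPM in WT under BMP4 and LDN193189. Trophectoderm markers separated them in WT, at 84.8 to 108 TPM under activin A and SB431542 and 51.9 to 67.7 TPM under BMP4 and LDN193189, while in HMCES-KO they overlapped, at 58.5 to 84.3 and 40.6 to 81.1 TPM. Only 4 of the 5 trophectoderm markers were measured there. Gata3 was under 1 TPM in WT cells under SB431542, BMP4 and LDN193189. The part of these markers in the result was not tested.

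Atf3 differed the most. It had 1.49 and 1.56 TPM under activin A in HMCES-KO cells, against 21.9 and 7.12 TPM under BMP4. In WT cells it had 5.21 and 1.17 TPM under activin A, against 20.4 and 25.4 TPM under BMP4. All 8 libraries under activin A or SB431542, at 0.988 to 5.21 TPM, lay below all 8 under BMP4 or LDN193189, at 7.12 to 25.4 TPM. The share of all genes that split the 16 libraries in this way is not given here. Atf3 rested on 4 to 85 recovered reads per library, with 18 and 4 in WT and 5 and 5 in HMCES-KO cells under activin A. Activin A minus BMP4 was -2.43 ± 0.49 in HMCES-KO cells (adjusted p = 0.039) and -2.69 ± 0.49 in WT cells (adjusted p = 0.010). SB431542 minus LDN193189 was -2.48 ± 0.49 in HMCES-KO cells (adjusted p = 0.032) and -2.22 ± 0.49 in WT cells (adjusted p = 0.032). The activin A against BMP4 call in WT cells was lost without WT replicate 2 under activin A (adjusted p = 0.11) or WT replicate 1 (0.062) or 2 (0.10) under BMP4. That in HMCES-KO cells was lost without either HMCES-KO library under activin A, HMCES-KO1 under BMP4 or either WT library under SB431542, BMP4 or LDN193189 (0.058 to 0.18). The SB431542 against LDN193189 call was lost in WT cells without any 1 of the 4 libraries compared (0.12 to 0.22). In HMCES-KO cells it was lost without any 1 of the 4 compared or of the 6 WT libraries under SB431542, BMP4 and LDN193189 (0.0513 to 0.23).

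Junb, an AP-1 subunit known as an early target of TGF-beta family signals, had 634 and 650.4 TPM under activin A in HMCES-KO cells, against 291 and 417 TPM under BMP4. In WT cells it had 624 and 595 TPM under activin A, against 352 and 276 TPM under BMP4. Its 8 libraries under activin A or SB431542 (466 to 650.4 TPM) all lay above the 8 under BMP4 or LDN193189 (252 to 417 TPM). As for Atf3, the share of all genes split in this way is not given. Activin A minus BMP4 was 0.88 ± 0.18 in HMCES-KO cells (adjusted p = 0.039) and 0.96 ± 0.18 in WT cells (adjusted p = 0.011). SB431542 minus LDN193189 was 0.74 ± 0.18 in HMCES-KO cells (adjusted p = 0.093, and 0.037 with the replicate block) and 0.81 ± 0.18 in WT cells (adjusted p = 0.031). The activin A against BMP4 call in WT was lost without either WT library under activin A or WT replicate 2 under BMP4 (0.072 to 0.13). In HMCES-KO cells it was lost without any 1 of the 4 activin A libraries, either WT library under SB431542 or BMP4, or HMCES-KO1 under BMP4 (0.0525 to 0.20). The WT call of SB431542 against LDN193189 was lost without either WT library under SB431542 or WT replicate 2 under LDN193189 (0.088 to 0.26), and the HMCES-KO difference was called without either HMCES-KO library under BMP4 (0.044 each).

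Ier3 had 52.4 and 86.6 TPM under SB431542 in HMCES-KO cells, against 15.0 and 28.4 TPM under LDN193189. In WT cells it had 69.3 and 87.4 TPM under SB431542, against 18.4 and 19.0 TPM under LDN193189. The 8 libraries under activin A or SB431542 (30.5 to 87.4 TPM) lay above the 8 under BMP4 or LDN193189 (9.36 to 28.4 TPM). Here too the share of all genes split in this way is not given. SB431542 minus LDN193189 was 1.66 ± 0.42 in HMCES-KO cells (adjusted p = 0.12, and 0.0060 with the replicate block) and 2.00 ± 0.42 in WT cells (adjusted p = 0.025). Activin A minus BMP4 was 1.43 ± 0.42 in HMCES-KO cells (adjusted p = 0.16, and 0.015 with the replicate block) and 1.93 ± 0.42 in WT cells (adjusted p = 0.026). The WT calls were lost without WT replicate 2 under activin A or either WT library under BMP4 (0.10 to 0.24), and without any 1 of the 4 libraries compared for SB431542 against LDN193189 (0.11 to 0.20).

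Dusp1 had 84.8 and 93.2 TPM under activin A in WT cells, against 44.8 and 48.4 TPM under BMP4. Under SB431542 it had 89.5 and 109.5 TPM in WT cells, against 42.0 and 51.8 TPM under LDN193189. The WT libraries of each pair of tables did not overlap, while over all 16 libraries the ranges did, at 50.9 to 109.5 TPM under activin A or SB431542 and 30.4 to 55.5 TPM under BMP4 or LDN193189. Activin A minus BMP4 was 0.92 ± 0.21 in WT (adjusted p = 0.031) and 0.16 ± 0.21 in HMCES-KO cells (adjusted p = 0.81), and SB431542 minus LDN193189 was 1.07 ± 0.21 in WT (adjusted p = 0.016) and 0.63 ± 0.21 in HMCES-KO cells (adjusted p = 0.24, and 0.028 with the replicate block). Both WT calls were lost without any 1 of the 4 libraries compared (0.13 to 0.19 and 0.058 to 0.17). Limma without trend also ended every call of Dusp1, Ier3 and Junb in these contrasts and 3 of the 4 calls of Atf3, with adjusted p of 0.0535 to 0.127. Egr1 ran the other way in HMCES-KO cells, at -0.73 ± 0.16 for activin A minus BMP4 (adjusted p = 0.0515, and 0.021 with the replicate block), with 0.046 ± 0.16 in WT cells (adjusted p = 0.92). In HMCES-KO cells it was called with edgeR on recovered reads (0.014), a stricter filter (0.044) and median-of-ratios rescaling (0.044), and without HMCES-KO1 under BMP4 or either HMCES-KO library under LDN193189 (0.034 to 0.042).

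Whether the genotypes differed in these treatment differences was tested directly. In the 4 interaction contrasts 0 of 10 members were called, and edgeR on recovered reads called 0 as well. Members at an unadjusted p under 0.05 numbered 2 for activin A against BMP4, 2 for SB431542 against LDN193189, 1 for BMP4 against LDN193189 and 0 for activin A against SB431542. Over all genes tested the interactions called 0.111%, 0.0317%, 0% and 0% for the contrasts in that order. Egr1 came closest, at -0.77 ± 0.22 for activin A against BMP4 (adjusted p = 0.28) and -0.71 ± 0.22 for SB431542 against LDN193189 (adjusted p = 0.36). Dusp1 had -0.76 ± 0.29 for activin A against BMP4 (adjusted p = 0.45).

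**Figure D5:**
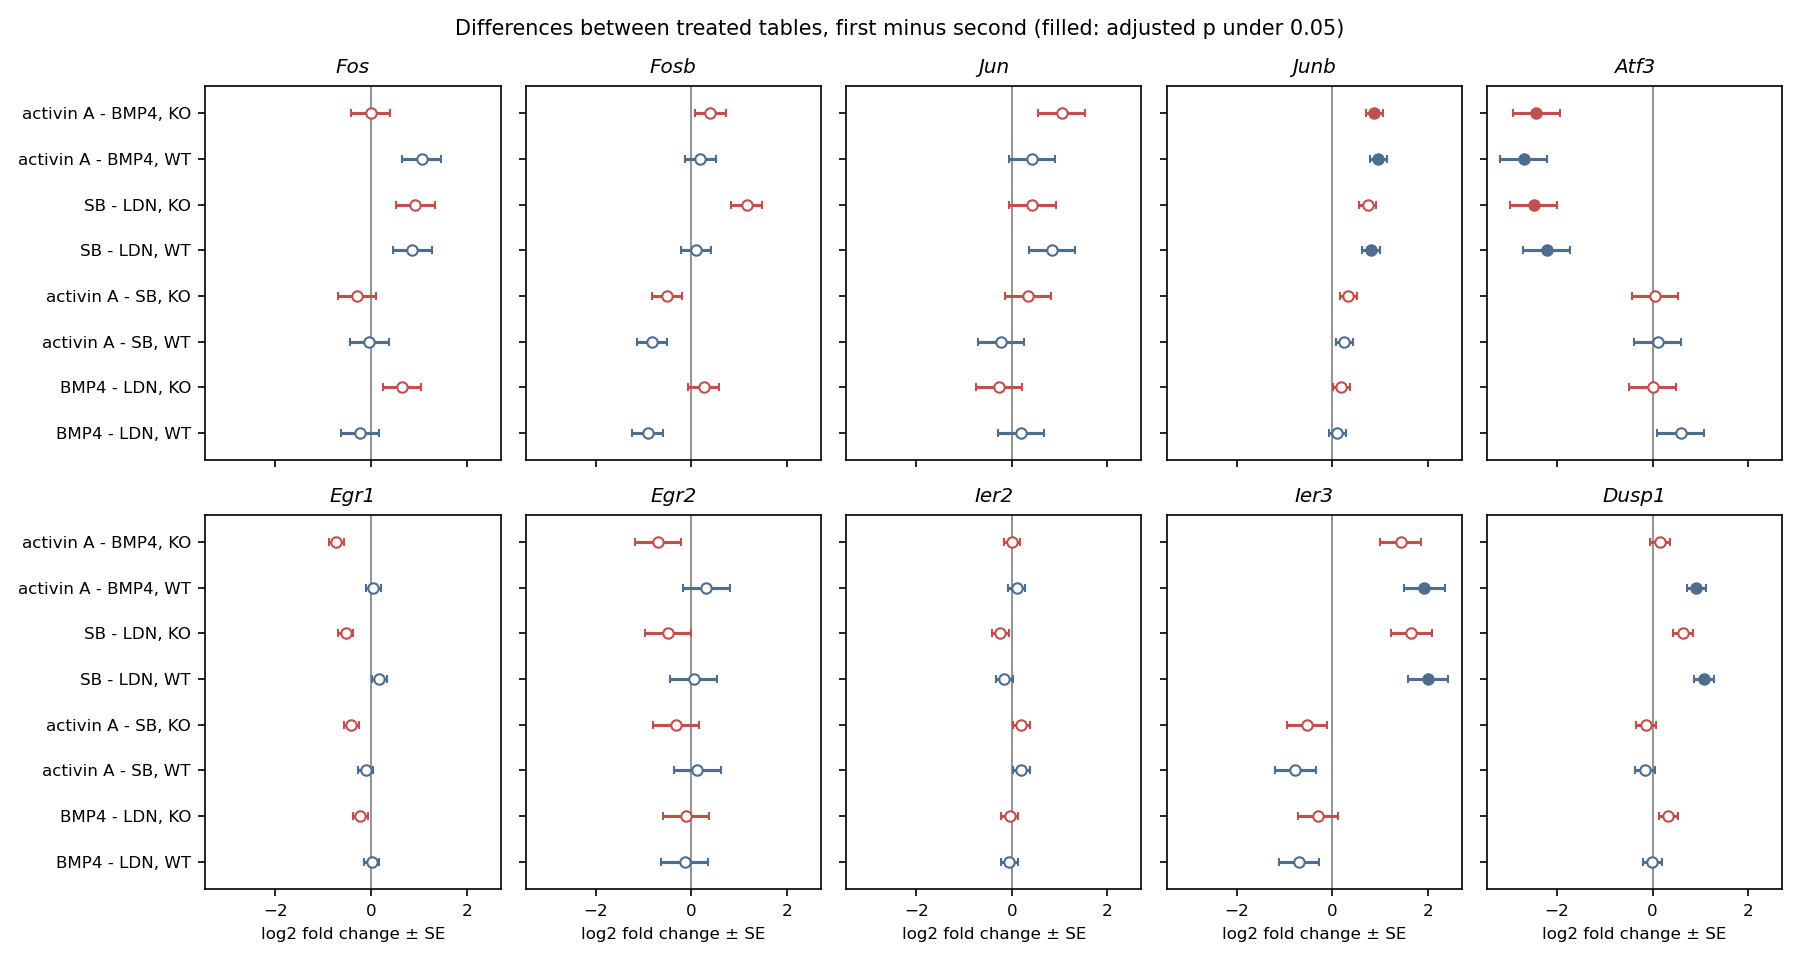
Log2 fold change (first treatment minus second) with its standard error for each member in HMCES-KO (KO, red) and WT (blue) cells; filled points have an adjusted p under 0.05. Atf3 was near -2.43 and -2.69 for activin A minus BMP4 in the 2 genotypes, and no member was called for a ligand against its own inhibitor.

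The promoters of the 4 members that differed between these tables are shown because these genes changed in the data and known inputs of this gene class read such sites. Each is 250 bases up to the base before the annotated start, from RefSeq on GRCm38.p6, on the gene's own strand, with motif matches in capitals: TGACG (the core of a CREB and ATF site) and TGACGTCA (the full site, which contains TGACG on both strands), TGANTCA (the AP-1 site), CAGACA (the SMAD box), TATAA and CCAAT, each searched on both strands.
Junb: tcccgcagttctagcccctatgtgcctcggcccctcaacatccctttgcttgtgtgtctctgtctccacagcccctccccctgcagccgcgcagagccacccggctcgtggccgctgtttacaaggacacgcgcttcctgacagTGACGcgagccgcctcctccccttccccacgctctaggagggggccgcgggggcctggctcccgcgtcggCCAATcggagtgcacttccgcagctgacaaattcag
Ier3: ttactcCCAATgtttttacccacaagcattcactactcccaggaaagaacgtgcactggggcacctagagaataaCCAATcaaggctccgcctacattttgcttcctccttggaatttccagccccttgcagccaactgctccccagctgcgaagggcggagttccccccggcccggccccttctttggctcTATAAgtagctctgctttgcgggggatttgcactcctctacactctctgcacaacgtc
Dusp1: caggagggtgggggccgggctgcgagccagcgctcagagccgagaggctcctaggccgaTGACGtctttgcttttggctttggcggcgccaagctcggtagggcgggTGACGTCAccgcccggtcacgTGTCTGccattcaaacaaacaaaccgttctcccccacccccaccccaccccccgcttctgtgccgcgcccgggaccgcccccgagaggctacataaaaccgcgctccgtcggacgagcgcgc
Atf3: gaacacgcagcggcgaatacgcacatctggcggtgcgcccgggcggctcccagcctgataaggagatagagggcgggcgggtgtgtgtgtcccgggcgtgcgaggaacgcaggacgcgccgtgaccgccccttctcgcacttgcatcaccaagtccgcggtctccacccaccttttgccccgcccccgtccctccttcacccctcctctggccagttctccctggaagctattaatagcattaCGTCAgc
They span chr8:84978749-84978998 (minus strand), chr17:35821463-35821712 (plus strand), chr17:26508473-26508722 (minus strand) and chr1:191183334-191183583 (minus strand). The Dusp1 promoter held the full site 143 bases before the start, a further TGACG core at 191 and a SMAD box at 122, and the Atf3 promoter a TGACG core 7 bases before the start. Junb had a TGACG core at 106 and CCAAT at 36, and Ier3 had CCAAT at 244 and 175 and TATAA at 58. Among 8 members with a promoter in the reference table, 6 held TGACG (Fos, Fosb, Junb, Egr2, Atf3 and Dusp1), which 17.8% of all 32851 promoters held. A member was counted if any of its promoters matched, while the shares over all are per promoter, so the units differ. Egr2 had 5 promoters there and each other member 1. TGACGTCA was in 1 member (Dusp1) and in 1.55% of all promoters, CAGACA in 1 (Dusp1) and in 17.1%, and TGANTCA in 0 and in 6.75%. TATAA was in 3 members and in 22.8% of all promoters, and CCAAT in 4 and in 33.9%. The CArG box that SRF binds was in 1 (Egr2) and in 1.47%, and the EGR site GCGNGGGCG in 1 (Fosb) and in 4.70%. These matches describe letters in these windows and not binding. Sequence outside the 250 bases was not searched, so a motif absent here may lie elsewhere at the same gene. Egr1 and Ier2 had no promoter in the reference table.

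Related gene lists were set beside the members; many of their shares of called genes are near those over all genes and are then no result about the list. Among all genes tested in the count table, 19.9% rose and 20.8% fell over the mean of both lines. There, of the other AP-1 family's 8 tested genes, 2 rose and 4 fell, with a median of -0.28, against -0.011 over all genes. They included Maff (-0.72 ± 0.11) and Batf3 (-1.34 ± 0.48), which fell, and Mafg (0.48 ± 0.087), which rose. Of the other growth-factor-induced early genes' 28 tested genes, 5 rose and 8 fell, with a median of -0.088. Rhob (0.82 ± 0.058), a small GTPase gene, and Klf6 (0.81 ± 0.065), a zinc finger factor gene, rose, and Egr4 (-0.92 ± 0.26) and Btg2 (-0.74 ± 0.075), an antiproliferative gene, fell. Upstream genes of the ERK, SRF and CREB inputs had 16 tested genes, of which 4 rose and 3 fell, and a median of 0.031, with Creb1 (0.45 ± 0.060) and Srf (0.36 ± 0.073) higher and Mapk3 (-0.25 ± 0.076), which encodes ERK1, lower. Mapk3 fell in KO8 (-0.43 ± 0.091, adjusted p = 0.00086) and had -0.069 ± 0.087 in KO7 (adjusted p = 0.57). Of the other DUSP phosphatases' 8 tested genes, 3 rose and 1 fell, with a median of -0.031. Dusp4 (0.70 ± 0.089) rose and Dusp16 (-0.89 ± 0.066) fell. Some of these means rest mainly on a single line. Dusp4 (1.23 ± 0.097) and Srf (0.63 ± 0.082) were called in KO8 and not in KO7. KO8 minus KO7 was 1.06 ± 0.096 for Dusp4 and 0.54 ± 0.082 for Srf. Batf3 was called in KO7 (-1.59 ± 0.58) and not in KO8. Dusp16 fell in both lines, at -0.91 ± 0.079 in KO7 and -0.86 ± 0.080 in KO8.

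In the untreated TPM table, where 5.80% of all genes tested rose and 10.2% fell, the other early genes had 28 tested genes, of which 4 rose and 3 fell, and a median of -0.087, against -0.056 over all genes, with Rhob at 1.48 ± 0.059 and Klf6 at 1.11 ± 0.054 among the risers and Trib1 at -0.65 ± 0.081 among the fallers. Of the other AP-1 family's 8 tested genes, 1 rose and 0 fell, with a median of 0.15. The upstream inputs had 16 tested genes, of which 1 rose and 1 fell, and a median of -0.079. Mapk3 rose there (0.43 ± 0.10, adjusted p = 0.044), opposite to its fall in the count table. Other DUSP phosphatases had 7 tested genes, of which 2 rose and 0 fell, and a median of 0.053, with Dusp4 at 1.18 ± 0.082 and Dusp6, a phosphatase for ERK, at 0.48 ± 0.045.

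Over the mean of the treated tables, where 13.8% of all genes tested rose and 20.7% fell, the other early genes had 29 tested genes, of which 3 rose and 13 fell, and a median of -0.18, against -0.042 over all genes. Rhob (1.10 ± 0.065) and Klf6 (0.95 ± 0.10) rose again, and Phlda1 (-0.82 ± 0.064) and Plk2 (-0.69 ± 0.094) fell. The other AP-1 family had 9 tested genes, of which 2 rose and 4 fell, and a median of -0.16, with Fosl1 at -0.68 ± 0.19 and Jund at 0.45 ± 0.086. Mafg, which rose in the count table, was called lower under activin A (-0.47 ± 0.13) and BMP4 (-0.49 ± 0.13). Other DUSP phosphatases had 8 tested genes, of which 0 rose and 3 fell, and a median of -0.47. Dusp6 fell, at -0.48 ± 0.049 (adjusted p = 1.5e-05) and was called in each of the 4 tables. In untreated cells Dusp6 had risen in the TPM table (0.48 ± 0.045) and fallen in KO8 of the count table (-0.34 ± 0.061). Upstream inputs had 16 tested genes, of which 2 rose and 2 fell, and a median of 0.0034. Between treatments in WT cells, activin A against BMP4 called 7 higher and 0 lower among 29 other early genes, where 3.08% of all genes were called in either direction, with Socs3, a cytokine feedback gene, at 1.98 ± 0.22 and Btg2 at 1.21 ± 0.16. Of the other AP-1 family's 9 tested genes, Fosl1 rose (1.83 ± 0.38) and Batf3 fell (-1.65 ± 0.39) in the same contrast.

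Across the 16 treated libraries the 10 members did not move as 1 block. Pearson's r of each member with the mean z-score of the other 9 was 0.71 for Ier3, 0.54 for Fos, 0.51 for Dusp1 and 0.42 for Junb. It was -0.82 for Atf3, -0.36 for Ier2 and -0.14 for Egr1. The genes most like the mean of all 10 were Sertad1 (r = 0.906), Pdgfa (0.888), Tfap2c (0.880), Fam129b (0.852) and Elfn1 (0.851). These are descriptions over 16 libraries that share 4 tables, 2 genotypes and 2 knockout lines.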

How the data were processed

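The 26 RNA-seq libraries were prepared with an Illumina TruSeq RNA kit, per the labels' protocols. For 6 of them the authors deposited raw counts per gene, from featureCounts 2.0.1 with the mm10 refGene annotation and no strand option set, per the file headers; reads of overlapping genes on opposite strands thus cannot be told apart, and no member shares exons with another annotated gene. TPM for the other 20 libraries was computed by the authors and deposited without its gene lengths. FastQC 0.11.5, Bowtie2 2.3.3, SAMtools 1.9 and DESeq2 are named per the submitters' processing notes. No label states whether the libraries of a group are separate cultures, so p-values describe only how these libraries vary, possibly for technical reasons. Untreated TPM columns, named CCE for WT, were assigned by their labels.

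Counts were tested with edgeR 4.0.16 (TMM, filterByExpr, quasi-likelihood test) on WT, KO7 and KO8 as separate groups. For TPM, limma-trend (limma 3.58.1) was run on log2(TPM + 1) of genes reaching 1 TPM in 2 or more libraries. The pseudocount of 1 understates fold changes of low genes. The 16 treated libraries were fitted together in 8 groups of 2 on the 12928 genes of all 4 tables, each rescaled to a common total. Printed and plotted TPM are as deposited. Benjamini-Hochberg adjustment ran over all genes tested in a contrast, with a threshold of 0.05. Whole reads behind TPM were recovered from its steps; using gene lengths deposited with the counts, 100% of the untreated values were whole within 0.01 reads, and treated values were solved gene by gene. The fits and the recovery were tested on simulated data. Alternatives were other scaling, filters and pseudocounts, DESeq2 1.42.0 on counts, limma without trend, a replicate block, each library left out and, added after seeing the data, edgeR on recovered reads. A left-out fit leaves a lone library that is assumed to vary like the other groups.

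Same-numbered HMCES-KO libraries of the treated tables are the same line by their labels, and their deviations correlated at 0.227 to 0.323, so they are paired; WT numbers and those of the untreated tables are not. The members and lists were chosen with earlier results of these data known, and chromosome medians were added after seeing the data. All 10 members are named. Of the other lists, genes were eligible by the largest absolute log2 fold change among called genes, up to 3 per direction and comparison, and values are printed for some of them; Jund was also named after its values were seen. Gene positions come from the count table (mm10) and promoters from RefSeq on GRCm38.p6.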

Additional observations from a re-analysis of the deposited data

Results flagged for a closer look

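In the count table the KO8 and KO7 lines differed, by the direct edgeR test, in Atf3 (-1.27 for KO8 minus KO7 on the log2 scale), Jun (0.49), Ier2 (-0.49), Dusp1 (0.28) and Egr1 (1.23). Egr1 thus fell more in KO7 and Atf3 more in KO8, and Ier2 rose in KO7 without passing the test in KO8.

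In the treated tables HMCES-KO2 differed from HMCES-KO1, by limma, in Dusp1 (0.37), Ier2 (-0.42), Ier3 (0.73) and Jun (0.99).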

How the results depend on the processing

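Counts of called genes over all genes that moved by more than 1.5 times follow, with the count of the stated design in parentheses. Both lines as 1 group: the mean of KO7 and KO8 1552 (5476). DESeq2: KO8 against WT 3483 (5248), KO8 against KO7 2416 (3797). No filter: untreated TPM 1311 (2128). Limma without trend: untreated TPM 339 (2128), BMP4 443 (798), LDN193189 86 (289), activin A against SB431542 in HMCES-KO 3 (13), activin A against SB431542 in WT 0 (2), BMP4 against LDN193189 in WT 0 (4), activin A against BMP4 in HMCES-KO 42 (106), activin A against BMP4 in WT 188 (388), activin A against BMP4 (interaction) 3 (14), SB431542 against LDN193189 in HMCES-KO 36 (95), SB431542 against LDN193189 in WT 148 (291), SB431542 against LDN193189 (interaction) 0 (4), HMCES-KO2 against HMCES-KO1 554 (1002). EdgeR on recovered reads: untreated TPM 3587 (2128), BMP4 against LDN193189 in HMCES-KO 5 (3), BMP4 against LDN193189 (interaction) 1 (0), activin A against BMP4 in HMCES-KO 172 (106), activin A against BMP4 (interaction) 22 (14), SB431542 against LDN193189 in HMCES-KO 149 (95), SB431542 against LDN193189 (interaction) 15 (4). Replicate block: BMP4 1353 (798), LDN193189 703 (289), activin A against BMP4 in HMCES-KO 327 (106), activin A against BMP4 in WT 765 (388), activin A against BMP4 (interaction) 55 (14), SB431542 against LDN193189 in HMCES-KO 257 (95), SB431542 against LDN193189 in WT 634 (291), SB431542 against LDN193189 (interaction) 41 (4). Libraries of that table only: BMP4 41 (798), LDN193189 1 (289). Pseudocount 0.1: activin A against SB431542 in WT 1 (2), SB431542 against LDN193189 (interaction) 1 (4). Knockout libraries only: HMCES-KO2 against HMCES-KO1 570 (1002). Leaving out 1 library at a time gave the following ranges: the mean of KO7 and KO8 4350 to 6259 (5476), KO7 against WT 3088 to 6036 (5149), KO8 against WT 3230 to 6186 (5248), KO8 against KO7 2012 to 5090 (3797), untreated TPM 619 to 2418 (2128), activin A 508 to 1781 (1529), SB431542 439 to 1784 (1531), BMP4 133 to 1085 (798), LDN193189 18 to 493 (289), the treated mean 3733 to 4458 (4353), activin A against SB431542 in HMCES-KO 3 to 12 (13), activin A against SB431542 in WT 0 to 3 (2), activin A against SB431542 (interaction) 0 to 2 (0), BMP4 against LDN193189 in HMCES-KO 3 to 12 (3), BMP4 against LDN193189 in WT 0 to 5 (4), BMP4 against LDN193189 (interaction) 0 to 8 (0), activin A against BMP4 in HMCES-KO 26 to 203 (106), activin A against BMP4 in WT 71 to 518 (388), activin A against BMP4 (interaction) 0 to 22 (14), SB431542 against LDN193189 in HMCES-KO 25 to 115 (95), SB431542 against LDN193189 in WT 76 to 408 (291), SB431542 against LDN193189 (interaction) 0 to 19 (4), HMCES-KO2 against HMCES-KO1 554 to 883 (1002). Of the single-member results under the alternatives, 4436 kept direction and side of the threshold or stayed uncalled, 125 lost a call, 41 gained one and 0 reversed. Most lost calls came from leaving out 1 library, in designs with 2 libraries a group; the cause was not tested. The replicate block changed the calls given beside Ier2, Egr1, Jun, Ier3, Dusp1 and Junb in the report and no other member call. In the untreated tables same-numbered libraries did not deviate together (r of -0.025 to 0.032), and the block gave 5470, 5142, 5238, 3815, 1940 calls for the mean of KO7 and KO8, KO7, KO8, KO8 against KO7 and untreated TPM. Fosb, Egr2 and Fos are limited by counting at this depth, and so is Atf3 under activin A and SB431542, with as few as 4 recovered reads in a library.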
